A study of Sus scrofa with 10 samples.

Results

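Bile acid synthesis and canalicular export were followed through 6 genes: the enzymes *CYP7A1*, *CYP39A1* and *CYP27A1*, and the transporters *ABCB11*, *ABCC2* and *ABCG8*. They were chosen by symbol among 4730 genes measured in pig liver with the Affymetrix GeneChip Porcine array, on which 9 probe sets (groups of short probes read as 1 transcript) carried exactly 1 of these symbols. Each gene was read as the average of those of its probe sets that reached at least 4 on the log2 scale as a mean over the 10 arrays. All 6 genes and 8 of the 9 probe sets met that limit, and the exception was a second probe set of *ABCB11*, which lay at the lowest value of the scale, 2.19, on 8 of the 10 arrays and within 0.5 of it on the others.

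The animals were 10 females of a backcross of Iberian × Landrace boars to Landrace sows, slaughtered at a similar age, each with 1 array of liver RNA. The 5 H animals were those with relatively more polyunsaturated fatty acids in the longissimus dorsi muscle, and the 5 L animals those with relatively more saturated and monounsaturated ones. The groups therefore differ by a trait of the muscle, not by a treatment or a known genotype. Full sibs and maternal half-sibs had been placed in opposite groups, and each group had fewer fathers than animals. The sources used here do not say which animals were related, so kinship was not modelled. Values are GCRMA intensities on the log2 scale, whose lowest value on every array was 2.19. A probe set at that value has only an upper bound. All 10 hepatocyte markers were measured, at a mean of 14.76 ± 0.08 in H and 14.79 ± 0.05 in L (log2, n = 5 each, SD), and each array had a median correlation between 0.969 and 0.979 with the other arrays across probe sets.

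Bile acids are made from cholesterol in hepatocytes. In the classic route, CYP7A1 hydroxylates cholesterol and sets the pace of the pathway. In an alternative route, CYP27A1, a mitochondrial enzyme, oxidises the sterol side chain and CYP39A1 acts on side-chain hydroxylated sterols. Their products are secreted across the canalicular membrane, the face of the hepatocyte turned to the bile: ABCB11, the bile salt export pump, moves bile salts, ABCC2 moves conjugated organic anions, and ABCG8, as the partner of ABCG5, moves cholesterol and plant sterols. Bile acids return to the liver from the blood through uptake carriers such as SLC10A1.

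None of the 6 genes differed between H and L beyond the spread between animals, and for every one the animals of both groups overlapped. *CYP7A1* varied widely between animals of both groups. *ABCB11* varied together with *CYP39A1* and with *CYP27A1* over the 10 animals, and all 3 were lowest in L3. Both relations passed the test by Pearson's r, but neither did by rank (adjusted permutation p of rho = 0.153) or without L3 (adjusted permutation p = 0.283).

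*CYP7A1* had array values of 9.51, 5.61, 7.95, 2.19 and 5.26 in H1 to H5, against 2.58, 8.33, 2.60, 2.19 and 7.57 in L1 to L5 (log2). The animals above and those close to the lowest value were found in both groups: 4 of 5 H animals and 2 of 5 L animals lay more than 0.5 above it. The mean was 6.10 ± 2.80 in H and 4.65 ± 3.03 in L (log2, n = 5 each, SD). The difference, H minus L, was 1.45 on the log2 scale with a standard error of 1.63 (95% confidence interval from -2.16 to 5.06, limma adjusted p = 0.985, exact permutation test, two-sided, p = 0.460). H4 and L4 were at the lowest value of the array, which is only an upper bound, so the spread given here is a lower one. The difference was 0.60 without H1 and 2.43 without H4, the lowest and the highest value with 1 animal left out.

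The SD of *CYP7A1* over the 10 animals was 2.85, with rank 1 among the 4730 genes, whose median SD was 0.22. The genes that followed were *MSANTD3* at 2.71, *CA3* (carbonic anhydrase III) at 2.48, *CYP2C36* at 2.47, *HSD17B2* at 2.38 and *SDS* (serine dehydratase) at 2.31, named here after their values were seen. Within the groups, the SD of *CYP7A1* had rank 4 in H and rank 2 in L. It had rank 2 over all animals without H1, without L4, or when no filter on low values was applied.

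*CYP39A1* had values of 8.43, 8.21, 8.44, 8.24 and 8.75 in H1 to H5, against 8.18, 8.55, 7.26, 7.78 and 8.65 in L1 to L5 (log2). The H animals lay close together, and the 2 lowest values of the series were those of L3 and L4. The mean was 8.41 ± 0.22 in H and 8.08 ± 0.58 in L (log2, n = 5 each, SD), a difference of 0.33 with a standard error of 0.25 (95% confidence interval from -0.22 to 0.88, limma adjusted p = 0.985, exact permutation test, p = 0.294). Without L3 the difference was 0.12.

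*CYP27A1* had values of 9.87, 9.40, 9.16, 8.74 and 9.60 in H1 to H5, against 9.61, 9.35, 8.69, 9.35 and 9.14 in L1 to L5 (log2). The lowest animal was H4 in the H group and L3 in the L group. The mean was 9.35 ± 0.43 in H and 9.23 ± 0.34 in L (log2, n = 5 each, SD), a difference of 0.13 with a standard error of 0.22 (95% confidence interval from -0.37 to 0.62, limma adjusted p = 0.985, exact permutation test, p = 0.579). It turned below 0 without H1 (-0.0023) or L3 (-0.0084) and was 0.28 without H4. The gene was read by 3 probe sets with means of 12.27, 6.42 and 9.18, whose differences were 0.05, 0.07 and 0.25 on the log2 scale (standard errors 0.16, 0.35 and 0.22). Over the 10 animals Pearson's r was 0.69 between the first and the second of these probe sets, 0.63 between the first and the third, and 0.89 between the second and the third, given as a description, since all 3 belong to the same gene and arrays.

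**Figure D1:**
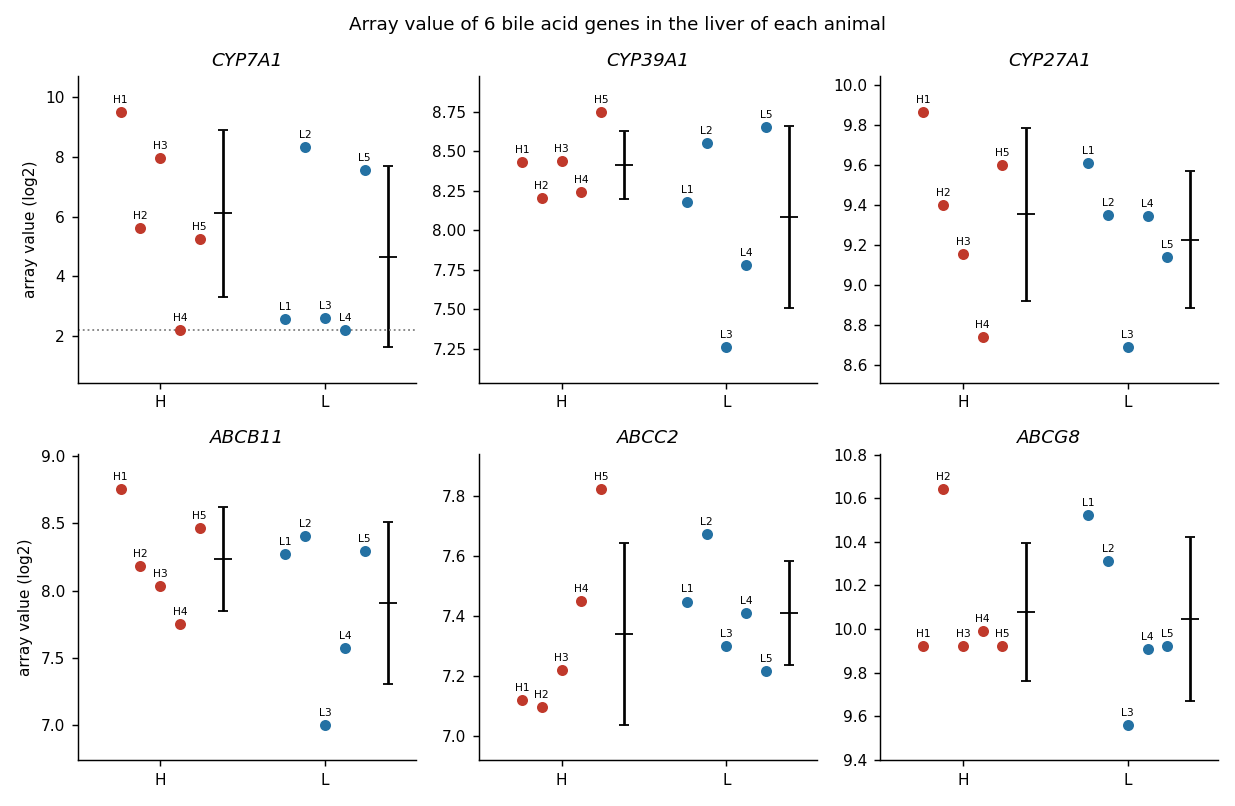
Array value (log2, y axis) of the 6 genes in each of the 5 H and 5 L animals, with the mean and SD of each group beside its points; the y axis differs between panels. The groups overlap in every panel, *CYP7A1* spans from the lowest array value (dotted line, 2.19) to 9.51, and L3 is the lowest animal for *CYP39A1*, *CYP27A1*, *ABCB11* and *ABCG8*.

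Among the transporters, *ABCB11* had values of 8.76, 8.19, 8.04, 7.75 and 8.46 in H1 to H5, against 8.27, 8.40, 7.00, 7.57 and 8.29 in L1 to L5 (log2). The lowest animal was again L3, followed by L4 and H4, and the highest was H1. The mean was 8.24 ± 0.39 in H and 7.91 ± 0.60 in L (log2, n = 5 each, SD), a difference of 0.33 with a standard error of 0.29 (95% confidence interval from -0.31 to 0.97, limma adjusted p = 0.985, exact permutation test, p = 0.357). Without L3 it was 0.10, and with the second, dark probe set averaged in it was 0.17.

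*ABCC2* had values of 7.12, 7.10, 7.22, 7.45 and 7.82 in H1 to H5, against 7.45, 7.67, 7.30, 7.41 and 7.22 in L1 to L5 (log2). It held the narrowest range of the 6 genes, 0.73 on the log2 scale, and L3 did not stand apart. The mean was 7.34 ± 0.30 in H and 7.41 ± 0.17 in L (log2, n = 5 each, SD), a difference of -0.07 with a standard error of 0.15 (95% confidence interval from -0.40 to 0.26, limma adjusted p = 0.985, exact permutation test, p = 0.675). With 1 animal left out the difference lay between -0.19 without H5 and -0.0017 without L2, and it was -0.0061 without H2.

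*ABCG8* had values of 9.92, 10.64, 9.92, 9.99 and 9.92 in H1 to H5, against 10.52, 10.31, 9.56, 9.91 and 9.92 in L1 to L5 (log2). The value of H1, H3, H5 and L5 was identical to 6 decimals, and 742 of the 11756 probe sets (6.31%) had such an identical value on 4 or more arrays. Differences between these 4 animals can therefore not be read for this gene. The mean was 10.08 ± 0.32 in H and 10.05 ± 0.38 in L (log2, n = 5 each, SD), a difference of 0.03 with a standard error of 0.20 (95% confidence interval from -0.41 to 0.48, limma adjusted p = 0.997, exact permutation test, p = 0.833). Its values had r = 0.717 with the difference between the 3' and 5' probe sets of *GAPDH*, a measure of RNA degradation, which was 1.96 ± 0.28 in H and 1.99 ± 0.42 in L (log2, n = 5 each, SD). With that measure in the fit the difference of *ABCG8* was 0.05.

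**Figure D2:**
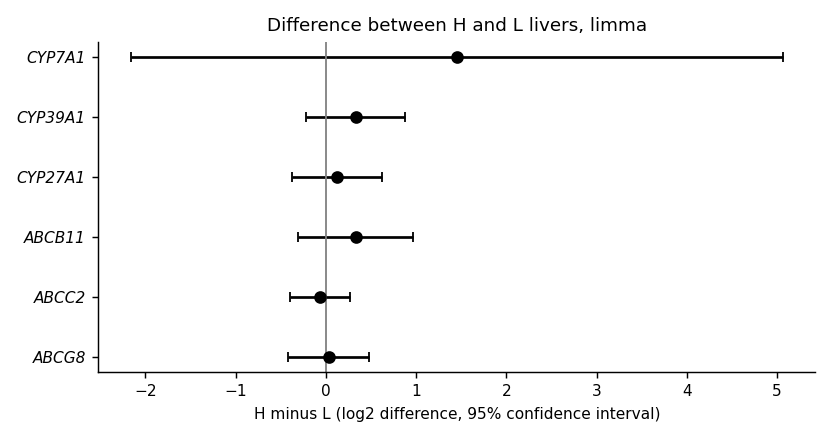
Difference between H and L (H minus L, log2, x axis) of the 6 genes (y axis), with the 95% confidence interval of limma (n = 5 H and n = 5 L). Every interval contains 0, and that of *CYP7A1*, from -2.16 to 5.06, is the widest.

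Of the 6 genes, 5 had a difference above 0 and 1 below 0, with a median of 0.23, and over all 4730 genes 1758 were above 0 and 2972 below 0, with a median of -0.04. At an adjusted p under 0.05, 0 of the 6 genes were called by limma, beside 0 of the 4730 genes (0.0%) and 0 of the 11756 probe sets (0.0%). At an unadjusted p under 0.05 the counts were 0 of 6 genes and 125 of 4730 (2.64%). The interval of each of the 6 genes reached to both sides of 0.

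The rest of the pathway was read through 68 further genes in 6 lists, of which 30 had a probe set with their symbol alone and 25 were measured. Of the 25 genes, 15 were above 0 and 10 below 0 (H minus L, median 0.02), 0 had a limma adjusted p under 0.05 and 1 had an unadjusted p under 0.05. This gene was *NR1I2*, which encodes the pregnane X receptor, a sensor of bile acids and foreign compounds. Its values were 5.92, 5.91, 5.89, 5.69 and 6.02 in H1 to H5, against 6.25, 6.19, 6.10, 6.71 and 6.06 in L1 to L5 (log2). The highest H animal, H5 at 6.02, lay just below the lowest L animal, L5 at 6.06, so the groups did not overlap, as was the case for 0.359% of all genes. The mean of *NR1I2* was 5.89 ± 0.12 in H and 6.26 ± 0.26 in L (log2, n = 5 each, SD), a difference of -0.38 with a standard error of 0.13 (limma unadjusted p = 0.0138, adjusted p = 0.985).

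Within the list of sterol ring and side chain enzymes, 4 of 6 measured genes were above 0 and 2 below. *ACOX2*, a peroxisomal oxidase that shortens the side chain, averaged 11.22 ± 0.35 in H and 10.92 ± 0.21 in L (log2, n = 5 each, SD; difference 0.30, limma unadjusted p = 0.111). The gene with the next smallest p was *HSD17B4*, the peroxisomal bifunctional enzyme of the same process, with a difference of 0.11. *CYP8B1*, the 12-alpha-hydroxylase that sets the share of cholic acid, lay between 2.19 and 2.35 on all arrays and could not be compared. *SULT2A1*, which sulfates bile acids, was the 1 measured gene of conjugation and sulfation, with a difference of -0.13.

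At the canalicular membrane, 1 of 3 further genes was above 0 and 2 below. *ATP8B1*, a lipid flippase of that membrane, had a difference of -0.22 and *ABCG2*, an efflux pump, one of 0.19. *ABCB6* had been put on the same list, a placing not taken from these data, and lay at 2.55 or less on all arrays. Of the 4 measured genes of basolateral uptake and efflux, 3 were above 0 and 1 below, and the smallest p belonged to *SLCO1A2*, an uptake carrier, with 5.10 ± 0.41 in H and 4.74 ± 0.31 in L (log2, n = 5 each, SD; difference 0.35, limma unadjusted p = 0.124), and to *EPHX1*, an epoxide hydrolase, with a difference of -0.26. *ABCC6* lay at 2.22 or less on all arrays.

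Among nuclear receptors and signalling genes, 4 of 7 were above 0 and 3 below. *NR1H3*, which encodes LXR alpha, a sensor of oxysterols, averaged 9.00 ± 0.18 in H and 9.25 ± 0.20 in L (log2, n = 5 each, SD; difference -0.24, limma unadjusted p = 0.0668). *RXRA*, the partner of these receptors, lay at 2.19 on all arrays and could not be compared. Of the 4 genes of cholesterol supply, 3 were above 0 and 1 below. The one below was *SCARB1*, the HDL receptor, with a difference of -0.32 (limma unadjusted p = 0.124), and *LIPC*, hepatic lipase, had a difference of 0.10.

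Across animals the members differed in how far they varied. The range between the lowest and the highest animal was 7.32 on the log2 scale for *CYP7A1*, 1.75 for *ABCB11* (3.37-fold), 1.49 for *CYP39A1* (2.81-fold), 1.18 for *CYP27A1* (2.26-fold), 1.08 for *ABCG8* (2.11-fold) and 0.73 for *ABCC2* (1.66-fold). The SD of *ABCB11* was 0.51, and 7.93% of all genes had a larger one. The corresponding SDs were 0.45 for *CYP39A1* (11.6% of genes larger), 0.37 for *CYP27A1* (17.7%), 0.33 for *ABCG8* (24.1%) and 0.24 for *ABCC2* (45.4%).

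L3 was the lowest animal for 4 of the 6 genes and below the mean of all animals for 6 of 6. H1 was the highest animal for 3 genes, *CYP7A1*, *CYP27A1* and *ABCB11*, and H5 for 2, *CYP39A1* and *ABCC2*. L2 was below the mean for 0 of the 6. Across all probe sets the median r with the other arrays was lowest in H4 (0.969), L4 (0.973) and L3 (0.973). It lay between 0.976 and 0.979 in the other animals. H4, L4 and L3 were also the animals with the lowest *ABCB11*, and a link between these observations was not tested.

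*CYP39A1* and *ABCB11* varied together over the 10 animals. Pearson's r was 0.873 (permutation test, p = 0.00200, adjusted p = 0.0300 over 15 pairs of members) and Spearman's rho was 0.733 (permutation test, p = 0.0191, adjusted p = 0.153). Without L3 and L4, the 2 animals farthest from the median of *CYP39A1*, r was 0.445. Leaving out the extreme animals of a gene narrows its range, which by itself can lower r, here and in the pairs below. *CYP27A1* and *ABCB11* had r = 0.804 (permutation test, p = 0.00462, adjusted p = 0.0346) and rho = 0.733 (permutation test, p = 0.0204, adjusted p = 0.153), and r = 0.591 without H4 and L3. With each gene centred on its group mean, r was 0.855 for *CYP39A1* and *ABCB11* and 0.803 for *CYP27A1* and *ABCB11*, values close to those without centring.

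L3 was the animal whose absence lowered r most for both pairs. Without L3, r was 0.704 and 0.694, both with an adjusted permutation p of 0.283. The call of *CYP39A1* with *ABCB11* was also lost with 9 animals without H4 (r = 0.895, adjusted permutation p = 0.0531), H5 (r = 0.867, p = 0.0602), L2 (r = 0.866, p = 0.0530) or L4 (r = 0.855, p = 0.114), where r stayed close to that over 10 animals. That of *CYP27A1* with *ABCB11* was lost without H1 (r = 0.739, adjusted permutation p = 0.174), and without H2, H3, H4, H5, L1 or L2, where r lay between 0.787 and 0.825 and the adjusted p between 0.0530 and 0.0901. The 3 probe sets of *CYP27A1* had r of 0.59, 0.78 and 0.79 with *ABCB11*. *CYP39A1* and *CYP27A1* themselves had r = 0.492 (adjusted permutation p = 0.646), and 0.133 without L3 and L4.

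The remaining pairs did not pass the test. *ABCG8* had r of 0.463 with *ABCB11*, 0.429 with *CYP27A1* and 0.308 with *CYP39A1*, and *ABCC2* had r of 0.254 with *CYP39A1*, 0.086 with *ABCB11*, 0.067 with *CYP27A1* and -0.013 with *ABCG8*. *CYP7A1* was compared over the 6 animals above the lowest value, H1, H2, H3, H5, L2 and L5, where r was 0.381 with *ABCB11*, 0.143 with *CYP27A1*, -0.071 with *CYP39A1*, -0.329 with *ABCC2* and -0.357 with *ABCG8* (exact permutation tests, adjusted p between 0.781 and 0.969). A relation of *CYP7A1* with the other members was therefore not detectable in these 6 animals. Of the 15 pairs, 2 had an adjusted p under 0.05 by r and 0 by rho.

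**Figure D3:**
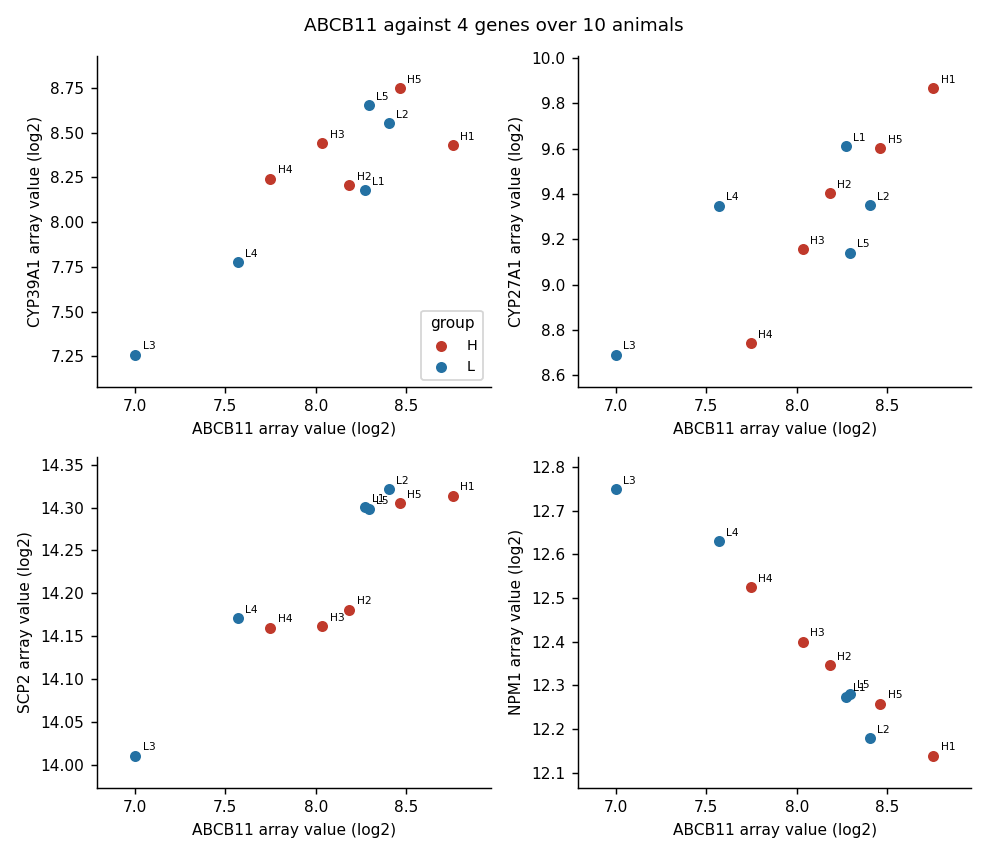
Array value of *ABCB11* (log2, x axis) against *CYP39A1*, *CYP27A1*, *SCP2* and *NPM1* (log2, y axes), each point being 1 animal and its colour the group (5 H and 5 L animals). *CYP39A1*, *CYP27A1* and *SCP2* run upward and *NPM1* downward, with L3 at the low end of *ABCB11* in each panel.

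Several other pathway genes varied with *ABCB11*. Those named from here on for their r with a member were chosen after the values were seen, other than the 3 genes with the highest r for each member. The correlations that follow are descriptions over 10 animals that share the same arrays and normalization. Of the 25 measured pathway genes, 6 (24%) had an r of at least 0.7 in size with *ABCB11*, beside 13.4% of all genes. *SCP2*, sterol carrier protein of the peroxisome, which takes part in side chain shortening, had r = 0.920 with *ABCB11*, 0.826 with *CYP39A1* and 0.758 with *CYP27A1*. Its values were 14.31, 14.18, 14.16, 14.16 and 14.31 in H1 to H5, and 14.30, 14.32, 14.01, 14.17 and 14.30 in L1 to L5 (log2), a range far smaller than that of *ABCB11*. L3 was again the lowest animal, and without it r of *SCP2* was 0.826 with *ABCB11*, 0.601 with *CYP39A1* and 0.613 with *CYP27A1*.

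The uptake carriers *SLC10A1*, the main sodium-dependent bile acid carrier, and *SLCO2B1*, an organic anion carrier, had r of 0.802 and 0.787 with *ABCB11*. *SLC10A1* had values of 12.58, 11.96, 12.05, 11.71 and 12.34 in H1 to H5, and 12.02, 12.40, 11.81, 11.97 and 12.41 in L1 to L5 (log2). Its lowest animal was H4, followed by L3, and its r with *ABCB11* was 0.836 without L3. Without L3, r with *ABCB11* was 0.655 for *SLCO2B1* and 0.593 for *HSD17B4*, which had r = 0.745 over all animals.

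*SREBF2*, the transcription factor of cholesterol synthesis genes, ran against *ABCB11* (r = -0.801) and *CYP27A1* (r = -0.788), and *ATP8B1* did so too, with r of -0.767 and -0.745. *SREBF2* was lowest in H1, at 4.34, and highest in L3, at 5.74 (log2). Only 1 of its 4 probe sets reached the limit of 4, with a mean of 4.94 in H and 4.91 in L (log2). Without L3, r with *ABCB11* was -0.611 for *SREBF2* and -0.644 for *ATP8B1*. With *CYP27A1*, 4 of the 25 pathway genes (16%) reached 0.7 in size, beside 7.83% of all genes, among them *RXRB*, a retinoid X receptor, at 0.736. With *CYP39A1* 2 of 25 (8.0%) did, *SCP2* and *HSD17B4* (r = 0.729), beside 10.9% of all genes. With *CYP7A1*, over 6 animals, 1 of 25 (4.0%) did, *NR1H3* at -0.718, beside 8.96% of all genes.

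The other transporters gave counts of 0, and the differences between these counts were not tested. With *ABCC2* 0 of 25 genes reached 0.7 in size, beside 1.33% of all genes, and r lay between -0.671 for *SULT2A1* and 0.614 for *SLCO1A2*. With *ABCG8* 0 of 25 did, beside 3.45% of all genes, and r lay between -0.691 for *ATP8B1* and 0.667 for *ACOX2*.

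**Figure D4:**
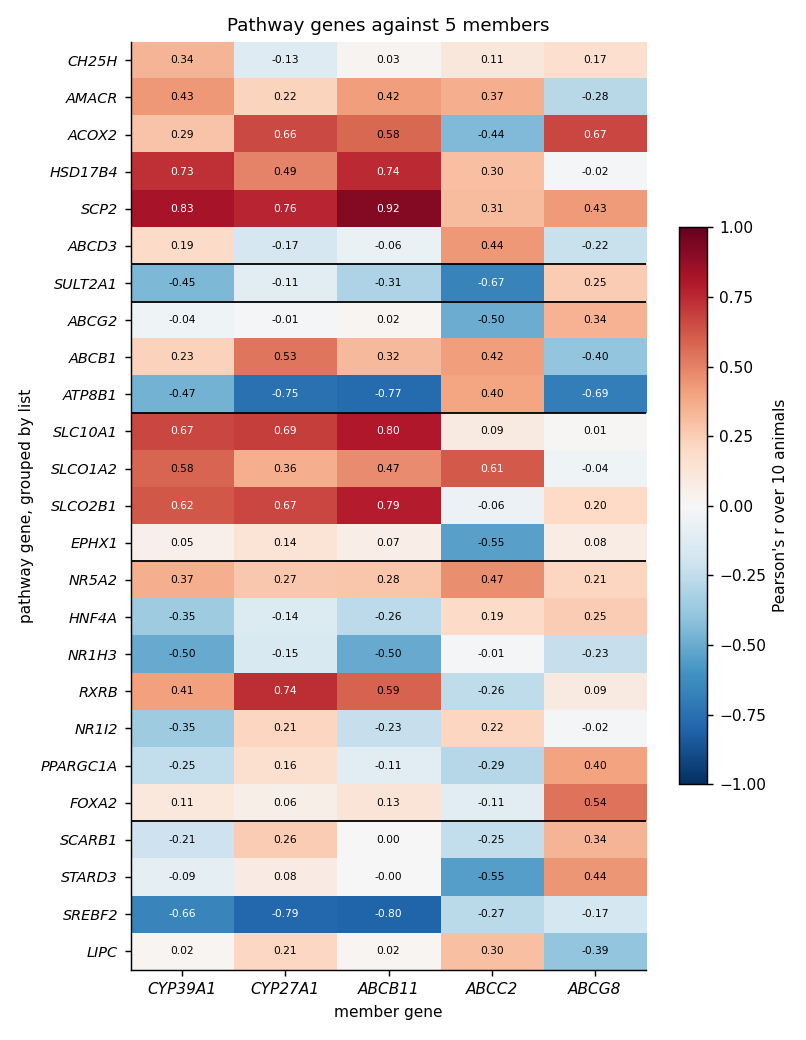
Pearson's r over 10 animals (colour and number in each cell) of the 25 measured pathway genes (rows, grouped by list) with 5 of the members (columns); *CYP7A1* is left out because 4 of its values lie near the lowest array value. *SCP2* is at 0.92 with *ABCB11*, *SREBF2* at -0.80, and no cell of *ABCC2* or *ABCG8* reaches 0.7 in size.

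Among all genes, those whose pattern over the 10 animals was most like that of *ABCB11* were the unnamed locus *LOC100518620* (r = 0.951), *PBLD* (0.947) and *DPYS* (0.939), the last encoding dihydropyrimidinase of pyrimidine breakdown. *DPYS* was at 11.40 in L3 and at 13.28 in its highest animal, L2 (log2). At the other end were *NPM1*, a nucleolar protein of ribosome assembly, with r = -0.981, and *PDCD11*, which processes ribosomal RNA, with r = -0.953. *NPM1* had values of 12.14, 12.35, 12.40, 12.53 and 12.26 in H1 to H5, and 12.27, 12.18, 12.75, 12.63 and 12.28 in L1 to L5 (log2). The order of the animals was nearly the reverse of that of *ABCB11* (rho = -0.976), and r was -0.976 without L3. *NPM1* was picked as an extreme of all genes in these same animals. Such values are large by selection, also with animals left out, here and for the genes of the other members below.

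The genes closest to *CYP39A1* were *TMEM19* (r = 0.962), *CRYZ*, a quinone oxidoreductase (0.942), and *TNFSF10*, the death receptor ligand TRAIL (0.932). At the other end were *PLOD3*, a collagen lysyl hydroxylase (r = -0.986, and -0.964 without L3), and *COPG1*, a coat protein of Golgi vesicles (-0.962). Closest to *CYP27A1* were *NDUFA3*, a subunit of respiratory complex I (0.903), *IFT46* (0.902) and *RBL2* (0.897), with *YWHAQ*, a 14-3-3 protein, at -0.947.

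The genes closest to *CYP7A1* over 10 animals were *PRDX6*, a peroxiredoxin (r = 0.891), *ARG2*, mitochondrial arginase (0.883), and *OLA1* (0.881). Over the 6 animals above the lowest value of *CYP7A1*, r was 0.973 for *PRDX6*, 0.751 for *ARG2* and 0.443 for *OLA1*. *PRDX6* had values of 12.79, 11.98, 12.66, 11.67 and 11.82 in H1 to H5, and 12.00, 12.59, 11.34, 11.86 and 12.33 in L1 to L5 (log2), with H1, H3, L2 and L5 highest, the 4 animals in which *CYP7A1* was highest. *TBC1D20*, which regulates membrane traffic, was at the other end, with r = -0.981, and -0.980 over the 6 animals.

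The genes closest to *ABCC2* were *LBP*, an acute phase protein that binds lipopolysaccharide (r = 0.879), the chemokine *CCL8* (0.871) and *FAM46A* (0.868), with the kinase *SGK1* at -0.903. *LBP* had values of 10.65, 10.89, 11.29, 11.40 and 11.80 in H1 to H5, and 11.07, 11.72, 10.86, 11.27 and 11.08 in L1 to L5 (log2). H5 and L2 were highest for both *LBP* and *ABCC2*, and without H5 r was 0.815. The genes closest to *ABCG8* were *GPHN* (0.904), *CLK1* (0.877) and *ZDHHC18* (0.867), with the clathrin adaptor *AP1B1* at -0.950.

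Of the measured markers of other cell types, 0 had a limma adjusted p under 0.05. In a whole-tissue sample, fewer cells of a type and less RNA per cell cannot be told apart. The mean level of the measured markers was 7.16 ± 0.24 in H and 7.16 ± 0.23 in L for cholangiocytes (4 of 12 measured, with *KRT19*, *SOX9* and *CFTR* below the limit of 4), 9.60 ± 0.29 in H and 9.72 ± 0.18 in L for Kupffer cells and macrophages (7 of 10), 7.11 ± 0.29 in H and 7.18 ± 0.37 in L for endothelium (3 of 9), and 7.61 ± 0.06 in H and 7.55 ± 0.35 in L for stellate cells and fibroblasts (6 of 9) (log2, n = 5 each, SD). Of the 6 markers of enterocytes and pancreas, 1 was measured, *APOA4*, an apolipoprotein of the intestine that liver can also make. It averaged 11.16 ± 1.01 in H and 12.00 ± 0.96 in L, with its lowest value, 9.70, in H1 and its highest, 13.01, in L3 (log2). Its r was -0.841 with *ABCB11*, -0.721 with *CYP39A1* and -0.683 with *CYP27A1*, and its part in the variation of these genes was not tested.

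Of the 21 measured markers of cell types other than hepatocytes, 3 (14.3%) had an r of at least 0.7 in size with *ABCB11*, beside the 13.4% of all genes. They were *APOA4* and, from the list of stellate cells and fibroblasts, *RGS5* and *DES*. *RGS5*, known from pericytes, had r of 0.870 with *ABCB11*, 0.803 with *CYP39A1* and 0.714 with *CYP27A1*, and averaged 6.80 ± 0.43 in H and 6.46 ± 0.47 in L (log2, n = 5 each, SD). *DES*, desmin, had r of 0.818 with *ABCB11* and 0.742 with *CYP27A1*, within a narrow range of levels (4.58 ± 0.09 in H and 4.49 ± 0.10 in L). The other 4 measured genes of that list had r with *ABCB11* of 0.483 for *ACTA2*, 0.289 for *COL1A2*, -0.239 for *DCN* and -0.527 for *PDGFRB*, and the mean level of the list had r = 0.280. With *CYP7A1*, over 6 animals, 2 of the 21 markers (9.52%) reached 0.7 in size, beside 8.96% of all genes. *SPP1* (osteopontin, on the cholangiocyte list) had r = 0.892. The other measured genes of that list had r of 0.030 for *EPCAM*, 0.016 for *AQP1* and -0.169 for *CLDN4*. *ACTA2*, smooth muscle actin, had r = -0.755, and the others of its list lay between -0.364 for *PDGFRB* and 0.643 for *DES*. With *ABCG8* 1 of 21 (4.76%) did, *PDGFRB* at -0.748, beside 3.45% of all genes. The other measured genes of its list had r with *ABCG8* between -0.477 for *DCN* and 0.365 for *ACTA2*. The part of these markers in the variation of the members was not tested.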

How the data were processed

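Liver RNA of 10 animals was hybridised to 1 Affymetrix GeneChip Porcine array each. Scans were read in GCOS, from which the authors made background-adjusted, normalized log2 values with GCRMA. The submitters' processing notes also name RMA, and the sources used here give no versions. The deposited log2 values of 24123 probe sets were used without further normalization. Names came from the platform annotation, and 9961 probe sets were named by its Entrez ID while 108 kept the platform symbol. Controls aside, 10069 probe sets had 1 symbol, 198 several and 13732 none. The background adjustment sets dim probe sets to 2.19, which understates differences between them. Array data give no depth, and the number of arrays limits the precision. No source names a hybridisation batch, so none was modelled.

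The groups were compared in R 4.3.3 by lmFit and eBayes of limma 3.58.1 (two-sided, Benjamini-Hochberg over all 4730 genes or 11756 probe sets, threshold 0.05), and single members with exact permutation tests over 252 divisions of the arrays, whose smallest p is 0.00794. Correlations over animals used 100000 permutations, or exact enumeration below 10 values, run in scipy 1.17.1, pandas 2.3.3 and numpy 2.4.6 under Python 3.11.15, and figures used matplotlib 3.10.9. The limma fit and the correlations over animals were also tested on simulated data with planted effects. P-values rest on the spread between these animals, which were treated as independent. Full sibs and maternal half-sibs were among them, and some animals within each group shared a father. The members, lists and tests were chosen with earlier results of these data known. Named were all members, per list the genes past the threshold or else the 2 with the smallest p and any gene at the lowest value, and for each member the 3 genes with the highest r. Genes named for another r or for their SD were chosen after their values were seen. Alternatives were other filters (none, 3 or 6 as the lowest mean), scaling (quantile, median), array weights, another prior, a *GAPDH* covariate, a block for the animal number, other ways to combine probe sets, group centring and leaving out each animal; those for the rank of *CYP7A1* were added after the data were seen. Sequences, coordinates and the sequencing libraries were not used here.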

Additional observations from a re-analysis of the deposited data

Results flagged for a closer look

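Of the 12 sets of 5 animals formed by the 6 genes and the H and L groups, 1 held an animal far from the others. In H2, *ABCG8*, 1 of the partners of the sterol exporter at the canalicular membrane, was at 10.64 on the log2 scale, and 9.92 to 9.99 in the other H animals. The gap to the nearest of these was 0.903 of the range of the group, above Dixon's 95% limit of 0.71. Of the other H animals, H1, H3 and H5 shared 1 value identical to 6 decimals, which raises this ratio, and the limit is not made for tied values, so the mark is a description only. A limit of this kind marks about 1 group in 20 by chance. L1 and L2 had values of 10.52 and 10.31, so H2 did not lie apart from all animals of the series. The *GAPDH* 3' minus 5' difference was 2.39 in H2 and 2.70 in L1. It was 2.08 or less in the other animals, L2 among them at 1.68 (log2). Its part in the value of H2 was not tested.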

How the results depend on the processing

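The count of 0 genes with an adjusted p under 0.05 was the same under every alternative run. The numbers of the animals did not pair them (correlations of same-numbered animals between -0.237 and 0.281, with 1 of 5 closest to its own number). With the animal number as a replicate block 0 genes had an adjusted p under 0.05, and the member with the smallest one was at 0.994. No alternative moved a member across the threshold. The count at an unadjusted p under 0.05, 125, lay between 90 without L4 and 281 without L2, and was 213 without H2. The difference of *ABCG8* was -0.045 with array weights and between -0.11 without H2 and 0.15 without L1, and that of *CYP27A1* between -0.0084 without L3 and 0.28 without H4. That of *ABCC2* lay between -0.19 without H5 and -0.0017 without L2. That of *CYP7A1* lay between 0.60 without H1 and 2.43 without H4, and it was not tested with a mean of at least 6. Of the 15 pairs, between 0 and 2 passed when single animals were left out.

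With single animals left out, r lay between 0.70 and 0.92 for *CYP39A1* and *ABCB11*, between 0.69 and 0.88 for *CYP27A1* and *ABCB11*, and on both sides of 0 for 10 other pairs: *CYP7A1* with *CYP39A1* (-0.87 to 0.53), *CYP27A1* (-0.76 to 0.47), *ABCB11* (-0.26 to 0.68), *ABCC2* (-0.71 to 0.26) and *ABCG8* (-0.74 to 0.22), *ABCC2* with *CYP39A1* (-0.013 to 0.36), *CYP27A1* (-0.18 to 0.35), *ABCB11* (-0.13 to 0.33) and *ABCG8* (-0.15 to 0.34), and *CYP39A1* with *ABCG8* (-0.21 to 0.42). The pairs of *CYP7A1* rested only on those left of its 6 animals above the lowest value, and the other pairs on all animals left. With quantile normalization, r of *ABCC2* and *ABCG8* was 0.018. The rank of *CYP7A1* by SD was 2 with no filter and between 1 and 2 with single animals left out. The causes were not tested.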
